A study of Homo sapiens with 8 samples.

Results

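The 9 genes described here encode the catalytic subunit of telomerase (TERT), 2 further proteins of the telomerase particle (WRAP53 and TEP1) and the 6 subunits of shelterin (TERF1, TERF2, TERF2IP, TINF2, POT1 and ACD). They were taken by gene symbol, and each had 1 row among the 25593 gene rows of the deposited table. Expression was measured by RNA sequencing in a pair of human acute myeloid leukaemia cell lines. HL60, of promyelocytic type, has MYC amplified. The RUNX1-RUNX1T1 fusion marks Kasumi-1, which has a myeloblast phenotype. Cinobufagin, a bufadienolide of toad venom that inhibits the Na+/K+-ATPase, was given at 100 nM over 24 h or left out, which makes 4 groups of 2 libraries. HL60 was grown in RPMI-1640 with 10% fetal bovine serum and Kasumi-1 in the same medium with 20%, so line and serum cannot be told apart. Nothing in the labels tells whether replicates were grown separately; p-values therefore reflect only how far these libraries vary, and that variation may be technical. Values are FPKM, a measure of fragments scaled to transcript length and library size, which allows levels of different genes to be set side by side.

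Telomerase adds short DNA repeats to chromosome ends. TERT is its reverse transcriptase, TERC is the RNA that carries the template, dyskerin (DKC1) and its partners stabilise that RNA, and WRAP53 (also called TCAB1) brings the particle to Cajal bodies. Most differentiated cells keep TERT silent, while leukaemic and other cancer cells usually express it at a low level, and MYC is a known activator of the TERT promoter. Shelterin coats the repeats and hides chromosome ends from the DNA damage response: TERF1 and TERF2 bind the duplex repeat, POT1 binds the overhang, ACD (also called TPP1) joins POT1 to TINF2 and recruits telomerase, TINF2 bridges the parts, and TERF2IP (also called RAP1) binds TERF2.

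The upstream sequences of TERT and TERF2IP are shown first because these genes had the largest fall and the largest rise among the 9 in HL60. Both come from the RefSeq promoter table of build GRCh38.p14, which matched 7 of the 9 members (all but TERF1 and TERF2). The deposited values were made on hg19, so these positions were not joined to any other data. Capitals mark the E-box CACGTG, to which MYC and MAX can bind, and the GC box GGGCGG, a binding sequence of SP1, searched on both strands. The TERT stretch is chr5:1295069-1295318 on the minus strand and ends at the base before the transcription start. The TERF2IP stretch is chr16:75647666-75647772 on the plus strand, the whole interval between the start of KARS1 (named KARS in the deposited table), which is transcribed the other way, and the start of TERF2IP.
TERT: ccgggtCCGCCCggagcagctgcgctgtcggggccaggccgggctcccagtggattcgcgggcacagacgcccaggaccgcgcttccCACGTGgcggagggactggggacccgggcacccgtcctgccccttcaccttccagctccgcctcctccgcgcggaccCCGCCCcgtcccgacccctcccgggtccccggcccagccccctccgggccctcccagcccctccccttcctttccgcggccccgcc
TERF2IP: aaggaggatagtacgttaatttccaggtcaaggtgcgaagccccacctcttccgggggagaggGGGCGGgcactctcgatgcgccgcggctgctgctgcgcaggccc

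The E-box of TERT began at position −163 relative to the start site. In windows of 300 bases, from 250 bases before each start to 50 bases after it, TERT was the only one of the 7 matched members with an E-box, which made 1 of their 10 windows (TINF2 and WRAP53 have several starts). An E-box was present in 7.26% of all 35116 windows of that length. GC boxes lay in 8 of the 10 windows and in 45.0% of all windows. Some of the 10 windows overlap, and those of TINF2 hold the same GC boxes. TERT had 3, beginning at −244, −86 and −5, and the last of these runs past the end of the printed stretch. POT1, ACD and TEP1 had 2 each, and TERF2IP had 1. A match is only a match of letters.

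The libraries fitted their labels: untreated Kasumi-1 had RUNX1T1, CD34 and TRH at 19.1 ± 2.4, 59.8 ± 1.9 and 89.0 ± 2.1 FPKM (SD, n = 2), and no HL60 library had any of them above 0. KIT, the other Kasumi-1 marker taken, was at 152 ± 9.5 FPKM in untreated Kasumi-1 and between 0.270 and 0.995 FPKM in the HL60 libraries. Without drug, MYC was at 768 ± 26 FPKM in the HL60 libraries and at 309 ± 1.5 in those of Kasumi-1. Of 14 marker genes of erythroid, megakaryocytic, T, B, stromal and epithelial cells, 4 passed the filter on low values, and HBB and MS4A1 were listed at 0 in every library. The exception in level was EPCAM, at 77.9 ± 0.9 FPKM in untreated Kasumi-1. Read totals were not used here; relative depth lay between 0.785 and 1.06 of untreated HL60 replicate 1. Libraries with replicate number 1 had the short RNA SNORD50A at 0 and those with number 2 at 45596 FPKM or more, so changes of the 9 genes are also given within each number.

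**Figure D1:**
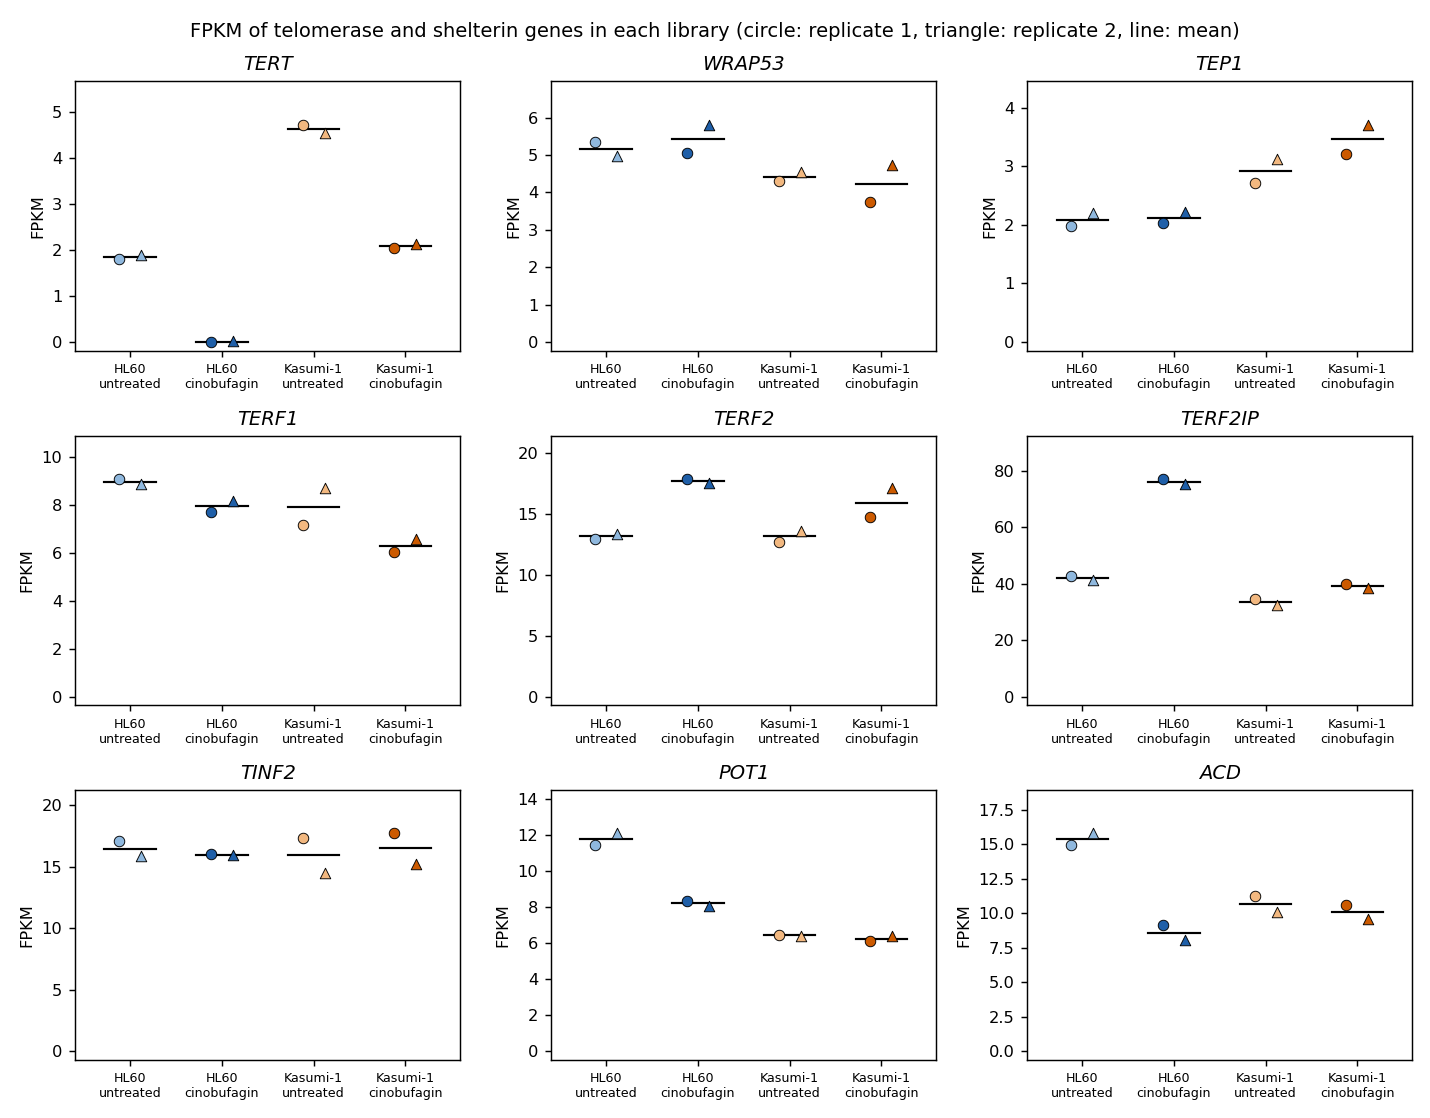
FPKM of the 9 genes in each of the 8 libraries, by line and treatment; circles are replicate 1, triangles replicate 2 and lines the mean of the 2 libraries. TERT sat at 0 and 0.014 FPKM in treated HL60, TERF2IP was the highest of the 9 in every group, and the TINF2 libraries of the 4 groups overlapped.

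In untreated HL60 and in both treated groups TERT was the lowest of the 9, and in untreated Kasumi-1 it was the seventh. In untreated HL60, TERF2IP was highest at 42.1 ± 1.1 FPKM, followed by TINF2 at 16.5 ± 0.88, ACD at 15.4 ± 0.6, TERF2 at 13.2 ± 0.29, POT1 at 11.8 ± 0.44 and TERF1 at 8.99 ± 0.15. WRAP53 stood at 5.16 ± 0.25, TEP1 at 2.09 ± 0.16 and TERT last at 1.85 ± 0.066 FPKM. In this group no gene's 2 libraries overlapped those of the next gene in the order. TERF2IP was above 85.5% of the genes tested and TERT above 20.2%, counting ties. In untreated Kasumi-1, TERT stood at 4.63 ± 0.13 FPKM, just above WRAP53 at 4.42 ± 0.17 and below POT1 at 6.43 ± 0.04 and TERF1 at 7.94 ± 1.1. The order in that group was TERF2IP, TINF2, TERF2, ACD, TERF1, POT1, TERT, WRAP53 and TEP1, again without overlap between neighbours. TERT and WRAP53 nearly touched there, with the lower TERT library at 4.544 FPKM and the higher WRAP53 library at 4.543. In treated HL60 the libraries of ACD overlapped those of POT1, and those of POT1 overlapped those of TERF1. In treated Kasumi-1 the libraries of TINF2 overlapped those of TERF2, as did those of TERF1 and POT1.

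Cinobufagin was compared with no drug in each line to ask how telomerase and shelterin transcripts moved during the treatment named in the design. In HL60, TERT, ACD and POT1 fell and TERF2IP and TERF2 rose, 5 changes among 9 genes, at an adjusted p under 0.05 (limma on log2(FPKM + 1), Benjamini-Hochberg over 12511 genes). The background in that line was high: 73.6% of all tested genes changed, 36.0% upward and 37.6% downward. In Kasumi-1, TERT fell and TERF2IP rose, against a background of 26.3% of genes changed, 10.1% upward and 16.2% downward. That count of 3292 genes in Kasumi-1 fell to 1708 and 1654 without untreated replicate 1 or 2 of that line, and to 1787 and 2055 without treated replicate 1 or 2. Rises made up 38.5% of these calls, and 52.5% after rescaling by median ratios. The median log2 change of the 9 genes was −0.04 in each line, against −0.01 in HL60 and −0.04 in Kasumi-1 over all tested genes. Myeloid marker genes moved in the same libraries: of MPO, ELANE, PRTN3, AZU1, CD33, SPI1 and CEBPA, 6 fell and SPI1 rose in HL60, and 5 rose and CD33 fell in Kasumi-1. Their summed level was 4761 to 4775 FPKM in untreated and 633 to 667 in treated HL60, and 10243 to 10513 in untreated and 13294 to 13674 in treated Kasumi-1. Their part in the changes described here was not tested. All these values are relative to the other mRNAs of a library, and fewer expressing cells and less RNA per cell cannot be told apart.

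**Figure D2:**
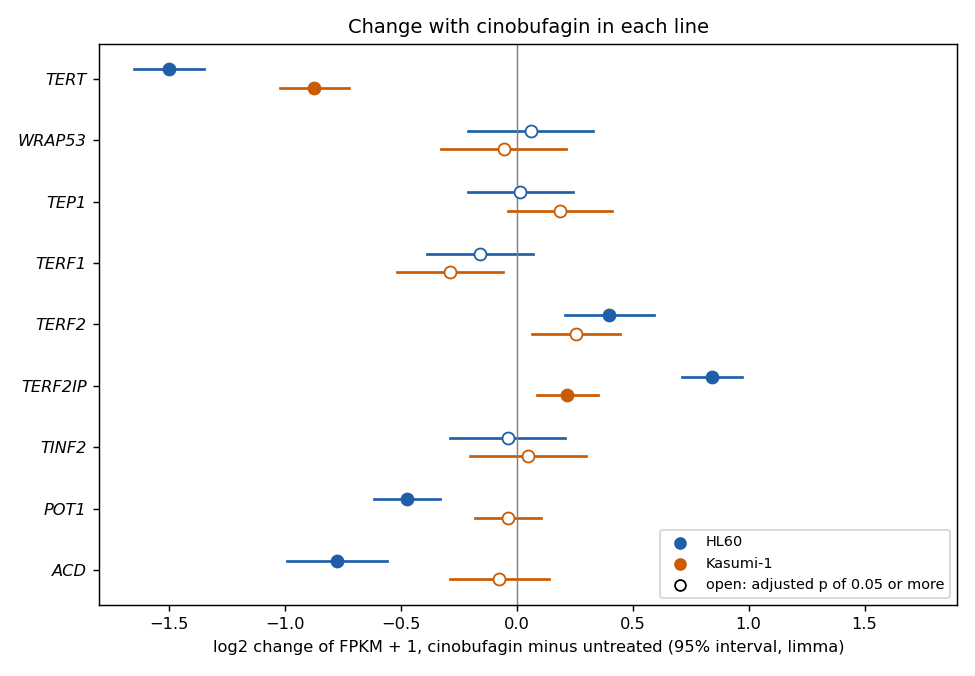
Log2 change of FPKM + 1 with cinobufagin for each gene in HL60 (blue) and Kasumi-1 (orange), with limma's 95% interval; filled points have an adjusted p under 0.05. TERT lies left of 0 in both lines and TERF2IP right of 0 in both, while ACD and POT1 are left of 0 in HL60 with intervals that include 0 in Kasumi-1.

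TERT, the catalytic subunit, fell in both lines. In HL60 it stood at 1.80 and 1.89 FPKM without drug and was listed at 0 and 0.014 FPKM with cinobufagin. Both treated libraries lay far below both untreated ones, and no fold is given against values this close to 0. The log2 change was −1.50 (SE 0.06, limma adjusted p = 2.44e-06), −1.49 within replicate number 1 and −1.51 within number 2. A pseudocount of 1 bounds the change of a gene at this level: with a pseudocount of 0.1 it was −4.19. On the scale with a pseudocount of 1, 827 genes had a lower log2 change in HL60.

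In Kasumi-1, TERT stood at 4.73 and 4.54 FPKM without drug and at 2.04 and 2.12 FPKM with it. The groups did not overlap, and the treated mean was 0.448 of the untreated mean. The log2 change was −0.87 (SE 0.06, limma adjusted p = 0.00116), or −0.92 and −0.83 within numbers 1 and 2. In this line 98 of the 12511 tested genes had a lower log2 change. The fall of TERT was larger in HL60, with a difference of 0.63 between the log2 changes (Kasumi-1 minus HL60, SE 0.09, limma adjusted p = 0.00103), or 3.07 with a pseudocount of 0.1. This test of the difference was passed by 4 of the 9 genes, 3 with a positive and 1 with a negative difference, against 63.1% of all genes, 30.1% positive and 33.1% negative. Of all genes called in it, 47.6% were positive, and 37.2% after rescaling without short RNAs and repeated symbols, which moved the median of all genes from −0.03 to −0.19. MYC fell beside it, from 786 and 749 FPKM to 30.3 and 29.2 in HL60, and from 308 and 310 FPKM to 199 and 202 in Kasumi-1. It was 1 of 7 regulators of the TERT promoter that fell in HL60, while 21 rose. Among those that rose was SP1, from 17.5 and 18.2 FPKM to 35.0 and 35.4 (limma adjusted p = 4.28e-05). In Kasumi-1 SP1 was at 15.3 and 16.5 FPKM untreated and at 15.9 and 18.3 treated, which overlap. Whether MYC or SP1 took part in the fall of TERT was not tested.

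WRAP53, which carries telomerase to Cajal bodies, passed no test of the drug. Its FPKM were 5.34 and 4.99 in untreated HL60, 5.05 and 5.81 in treated HL60, 4.30 and 4.54 in untreated Kasumi-1, and 3.73 and 4.74 in treated Kasumi-1. Treated and untreated libraries overlapped in both lines. Its log2 change lay between −0.21 and 0.33 in HL60 and between −0.32 and 0.21 in Kasumi-1 (95% intervals). Within numbers 1 and 2 it was −0.07 and 0.19 in HL60 and −0.16 and 0.05 in Kasumi-1, so the sign differed between numbers.

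TEP1, a protein found with telomerase RNA and in vault particles, passed no test of the drug either. It stood at 1.98 and 2.203 FPKM in untreated HL60 and at 2.02 and 2.22 in treated HL60, which overlap. In Kasumi-1 it was 2.71 and 3.12 FPKM untreated and 3.20 and 3.71 treated. Both treated Kasumi-1 libraries were above both untreated ones, but the log2 change of 0.19 had an interval from −0.04 to 0.41 (limma adjusted p = 0.193). Within numbers 1 and 2 the change was 0.024 and 0.0086 in HL60 and 0.18 and 0.19 in Kasumi-1.

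TERF1, which binds the duplex repeat and limits telomere elongation, was lower in both treated Kasumi-1 libraries (6.05 and 6.57 FPKM) than in both untreated ones (7.15 and 8.74). That change of −0.29 did not pass after adjustment (95% interval −0.52 to −0.06, limma adjusted p = 0.0712), but did without untreated Kasumi-1 replicate 1 (−0.41, adjusted p = 0.0353). In HL60 its FPKM were 9.09 and 8.88 untreated and 7.73 and 8.16 treated. The HL60 change of −0.16 had an interval from −0.39 to 0.07, and it turned to 0.0071 when FPKM were rescaled without short RNAs and repeated symbols. Within numbers 1 and 2 the change was −0.21 and −0.11 in HL60 and −0.21 and −0.36 in Kasumi-1.

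TERF2, which protects ends from fusion, rose in HL60 from 12.99 and 13.39 FPKM to 17.9 and 17.5. The treated mean was 1.34 times the untreated one, with no overlap (log2 change 0.40, SE 0.08, limma adjusted p = 0.00339). In Kasumi-1 it was 12.7 and 13.6 FPKM untreated and 14.7 and 17.2 treated. These libraries did not overlap either, but the change of 0.26 did not pass (SE 0.08, limma adjusted p = 0.0577), and it did pass after rescaling by median ratios (limma adjusted p = 0.022) and after quantile normalization (0.0324), and without treated Kasumi-1 replicate 1 (0.0325). The difference between the lines was −0.14, with an interval from −0.41 to 0.12. Within numbers 1 and 2 TERF2 changed by 0.43 and 0.37 in HL60, and the values in Kasumi-1 were 0.20 and 0.31.

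TERF2IP, the partner of TERF2, had the largest rise of the 9 in HL60. There it went from 42.9 and 41.3 FPKM to 77.1 and 75.3, so that both treated libraries stood well above both untreated ones and their mean was 1.81 times as high. The log2 change was 0.84 (SE 0.05, limma adjusted p = 1.47e-05), or 0.83 and 0.85 within numbers 1 and 2. In Kasumi-1 it went from 34.8 and 32.3 FPKM to 40.1 and 38.3, a ratio of 1.17 without overlap.

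The Kasumi-1 change of TERF2IP, 0.22 (SE 0.05, limma adjusted p = 0.0292), was close to the threshold, and was 0.20 and 0.24 within numbers 1 and 2. It was no longer called in 9 of 17 alternatives, which were the omission of any of the 8 libraries except Kasumi-1 untreated replicate 1, the fit without a filter on low values and the fit of Kasumi-1 alone, with adjusted p-values between 0.00506 and 0.128 over all 17. Its rise was larger in HL60, with a difference of −0.62 (Kasumi-1 minus HL60, SE 0.08, limma adjusted p = 0.000562).

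KARS, which encodes lysyl-tRNA synthetase and starts at the other end of the printed stretch of 107 bases, moved the other way. It fell from 134 and 131 FPKM to 77.8 and 81.7 in HL60 (log2 change −0.72, SE 0.04, limma adjusted p = 1.21e-05) and from 121 and 120 to 97.2 and 96.0 in Kasumi-1 (−0.31, limma adjusted p = 0.00526). TERF2IP went from 0.321 and 0.316 of the KARS level to 0.991 and 0.923 of it in HL60, and from 0.288 and 0.270 to 0.412 and 0.399 in Kasumi-1.

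**Figure D3:**
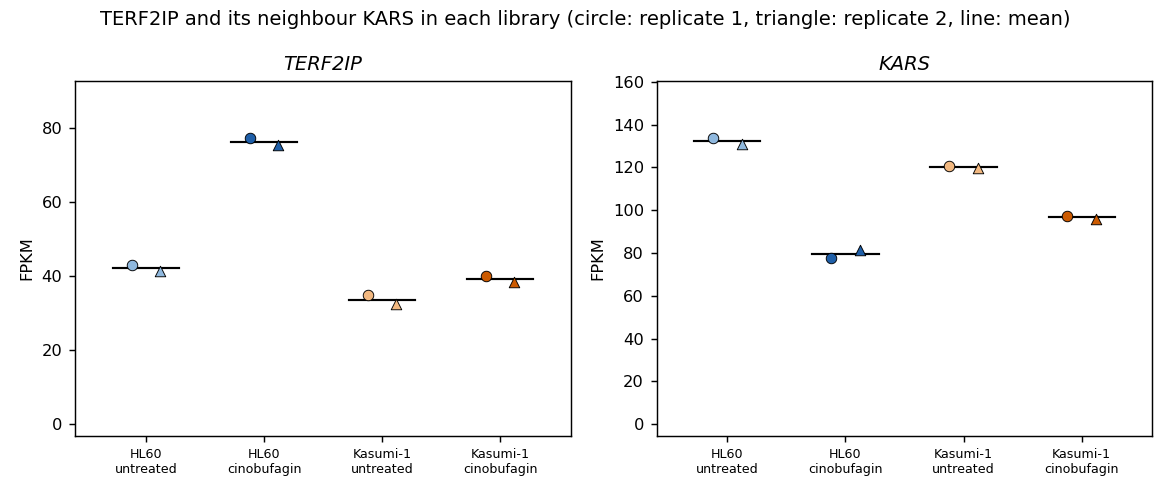
FPKM of TERF2IP and its neighbour KARS in each library; circles are replicate 1, triangles replicate 2 and lines the mean of 2 libraries. TERF2IP is higher and KARS lower in the treated libraries of both lines.

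TINF2, the bridge of shelterin, passed no test of drug or line. Its FPKM were 17.1 and 15.8 in untreated HL60, 16.1 and 15.9 in treated HL60, 17.4 and 14.5 in untreated Kasumi-1, and 17.7 and 15.3 in treated Kasumi-1. All groups overlapped. The 95% interval of its log2 change was −0.29 to 0.21 in HL60 and −0.20 to 0.30 in Kasumi-1, and the sign in HL60 turned under rescaling by median ratios (0.031) and without short RNAs (0.14). Within numbers 1 and 2 the change was −0.086 and 0.008 in HL60 and 0.026 and 0.07 in Kasumi-1.

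POT1, which binds the overhang, fell in HL60 from 11.5 and 12.1 FPKM to 8.35 and 8.05. Both treated libraries were lower, at 0.697 of the untreated mean (log2 change −0.47, SE 0.06, limma adjusted p = 0.000363). In Kasumi-1 it stood at 6.45 and 6.40 FPKM untreated and at 6.09 and 6.37 treated. Both treated libraries were slightly lower, the change of −0.04 had an interval from −0.18 to 0.10, and its sign turned under rescaling by median ratios (0.015) and quantile normalization (0.011). The difference between the lines was 0.43 (SE 0.08, limma adjusted p = 0.00415). It was not called after rescaling without short RNAs and repeated symbols (0.24, limma adjusted p = 0.144). Within numbers 1 and 2 POT1 fell by 0.41 and 0.53 in HL60, and the values in Kasumi-1 were −0.07 and −0.0049.

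ACD, the partner of POT1 that recruits telomerase, had the largest fall among shelterin genes in HL60. There it went from 14.9 and 15.8 FPKM to 9.13 and 8.03, with no overlap and a treated mean of 0.558 of the untreated one. The log2 change was −0.77 (SE 0.09, limma adjusted p = 0.000237), or −0.65 and −0.89 within numbers 1 and 2. In Kasumi-1 its FPKM were 11.3 and 10.1 untreated and 10.6 and 9.58 treated, which overlap (−0.07, interval −0.29 to 0.14; −0.08 and −0.07 within the numbers). The difference between lines was 0.70 (SE 0.13, limma adjusted p = 0.00306). PARD6A, the next gene beyond the start of ACD, was low throughout. It was at 2.17 ± 0.008 FPKM in untreated HL60 and 1.75 ± 0.18 in treated HL60 (log2 change −0.20, limma adjusted p = 0.035). In Kasumi-1 PARD6A was higher in both treated libraries, at 3.11 ± 0.054 FPKM untreated and 3.63 ± 0.0055 treated. That change of 0.17 did not pass (limma adjusted p = 0.115), and the difference between lines was 0.38 (limma adjusted p = 0.0148).

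The make-up of shelterin mRNA differed between treated and untreated HL60. TERF2IP made up 39.5% and 38.5% of the summed FPKM of the 6 subunits in untreated HL60 and 56.6% in both treated libraries. ACD went from 13.8% and 14.7% to 6.70% and 6.04%, and POT1 from 10.6% and 11.3% to 6.13% and 6.05%. In Kasumi-1 the share of TERF2IP was 38.7% and 37.7% untreated and 42.0% and 41.1% treated. The ratio of TERF2 to TERF1, the subunits that bind duplex repeats, was 1.43 and 1.51 in untreated HL60 and 2.31 and 2.15 in treated HL60. In Kasumi-1 it was 1.78 and 1.56 untreated and 2.44 and 2.61 treated. Both treated libraries had a higher ratio than both untreated ones in each line. These shares and ratios are descriptions of mRNA in each library, without a test, and say nothing of protein amounts.

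**Figure D4:**
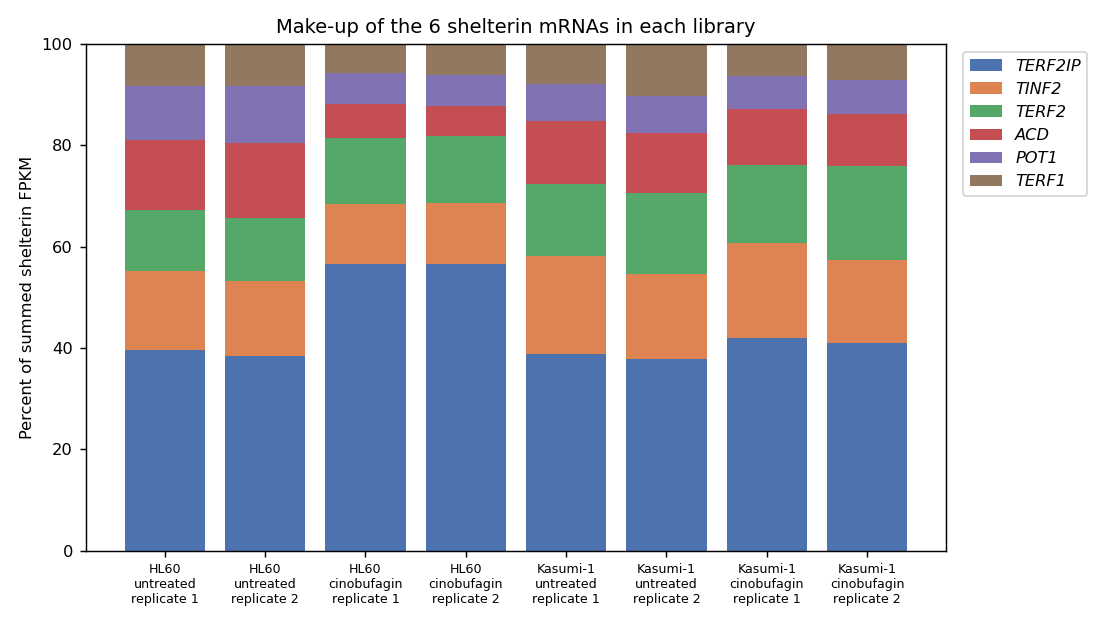
Share of each of the 6 shelterin genes in their summed FPKM, as stacked percentages for each of the 8 libraries. The TERF2IP segment covers 56.6% in both treated HL60 libraries and between 37.7% and 42.0% in the Kasumi-1 libraries.

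The lines also differed without drug. Untreated Kasumi-1 had more TERT than untreated HL60 (4.63 ± 0.13 against 1.85 ± 0.066 FPKM, log2 difference 0.99, SE 0.06, limma adjusted p = 1.38e-05). It had less POT1 (6.43 ± 0.04 against 11.8 ± 0.44 FPKM, −0.78, adjusted p = 3.31e-05), less ACD (10.7 ± 0.81 against 15.4 ± 0.6, −0.49, adjusted p = 0.00258) and less TERF2IP (33.6 ± 1.7 against 42.1 ± 1.1, −0.32, adjusted p = 0.00176). TEP1 was higher (2.92 ± 0.29 against 2.09 ± 0.16 FPKM, 0.34, limma adjusted p = 0.0158), a call lost without either untreated HL60 replicate 1 (adjusted p = 0.0854) or untreated Kasumi-1 replicate 2 (0.0842) and under quantile normalization (0.181). These are 5 of 9 genes, 2 higher and 3 lower in Kasumi-1, against 69.7% of all tested genes, 35.9% higher and 33.8% lower. TERF1, TERF2, TINF2 and WRAP53 did not pass, with intervals of −0.39 to 0.07, −0.19 to 0.19, −0.30 to 0.20 and −0.45 to 0.08. TERF1 passed without untreated Kasumi-1 replicate 2 (−0.29, limma adjusted p = 0.0269), and WRAP53 under quantile normalization (−0.29, adjusted p = 0.043).

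Other genes of telomerase assembly were compared with the shares over all tested genes, which were 36.0% higher and 37.6% lower in HL60 and 10.1% higher and 16.2% lower in Kasumi-1. Of 17 tested genes of a list of telomerase RNA and particle assembly, 12 fell and 2 rose in HL60 (median −0.71), and 7 fell and 0 rose in Kasumi-1 (median −0.23). Whether these counts differ from those shares was not tested, here or for the lists that follow. DKC1, which encodes dyskerin, fell from 100.0 ± 1.8 to 41.7 ± 1.8 FPKM in HL60 (log2 change −1.24, limma adjusted p = 4.27e-06) and from 85.6 ± 3.8 to 62.5 ± 3.1 in Kasumi-1 (−0.45, adjusted p = 0.00435). The ATPases RUVBL1 and RUVBL2, needed for particle assembly, fell by 2.41 and 1.80 on the log2 scale in HL60, and NHP2, a dyskerin partner, fell by 2.04. NOP10, another dyskerin partner, rose by 1.30, from 191 ± 23 to 470 ± 48 FPKM. SMN1, which shares reads with its near-identical copy SMN2, rose by 0.18. In Kasumi-1 the largest falls were those of RUVBL1 (−0.58), NOLC1 (−0.51) and DKC1. TERC itself did not pass the filter: it was between 0.44 and 1.15 FPKM in the HL60 libraries, 0.475 and 0.648 in untreated Kasumi-1, and listed at 0 in both treated Kasumi-1 libraries. The libraries were made with a kit that selects poly(A) RNA, and most TERC lacks a poly(A) tail.

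Of 22 tested genes that replicate and process telomere ends, 12 fell and 5 rose in HL60 (median −0.25), where 73.6% of all genes were called. In Kasumi-1 10 fell and 1 rose (median −0.17), against 16.2% lower and 10.1% higher over all genes. The primase gene PRIM1 fell by 1.36 and 0.54 on the log2 scale in the respective lines. OBFC1, the STN1 subunit of the CST complex that caps the overhang after telomerase has acted, fell from 1.79 ± 0.1 to 0.278 ± 0.052 FPKM in HL60 (−1.12, limma adjusted p = 2.45e-05) and stood at 3.74 ± 0.14 and 3.97 ± 0.38 FPKM in untreated and treated Kasumi-1. The helicase gene WRN fell by 1.10 in HL60. PIF1, a helicase that can strip telomerase from ends, rose by 1.55 in HL60 and by 0.50 in Kasumi-1, and the nucleases FEN1 and DCLRE1B rose by 0.53 and 0.34 in HL60. In Kasumi-1, POLA1, of DNA polymerase alpha, fell by 0.56 and the nuclease EXO1 by 0.43.

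Among 29 other tested telomere factors, 13 rose and 13 fell in HL60 (median −0.05), against 36.0% and 37.6% of all genes. In Kasumi-1 1 rose and 12 fell (median −0.20), against 10.1% and 16.2%. FBXO4, part of a ubiquitin ligase for TERF1, fell by 1.98 in HL60 and by 0.61 in Kasumi-1. TNKS1BP1, a tankyrase-binding protein, fell by 1.83 and 0.55 in these lines, and PARP1 fell by 1.70 in HL60. The tankyrase gene TNKS, whose product releases TERF1 from telomeres, rose by 0.87 in HL60, and LIG4, of end joining, rose by 1.32. SMG5, of mRNA decay and a relative of yeast Est1, rose by 0.79 in HL60 and 0.22 in Kasumi-1, and PRKDC, the DNA-dependent kinase, fell by 0.42 in Kasumi-1.

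Of 31 tested regulators of the TERT promoter, 21 rose and 7 fell in HL60 (median 0.36), against 36.0% and 37.6% of all genes. In Kasumi-1 4 rose and 5 fell (median −0.04), against 10.1% and 16.2%. MYC fell by 4.64 on the log2 scale in HL60 (SE 0.05, limma adjusted p = 7.85e-08) and by 0.62 in Kasumi-1 (SE 0.05, adjusted p = 0.00124). WT1 and MEN1, both described as repressors of TERT, fell by 2.24 and 1.61 in HL60. KLF4 rose by 2.33 in HL60, from 0.121 ± 0.026 to 4.64 ± 0.43 FPKM, and was listed at 0 in all Kasumi-1 libraries. BHLHE40 rose by 1.68 and 0.54 in HL60 and Kasumi-1, and HIF1A by 1.61 in HL60. MXD3, a MAX partner that opposes MYC, rose by 1.07 in Kasumi-1, from 10.2 ± 0.09 to 22.6 ± 2.3 FPKM, and by 1.04 in HL60. USF2 rose by 0.39 in Kasumi-1. MYCN and MXD4 fell by 0.45 and 0.39 in Kasumi-1, and MYCN was listed at 0 in all HL60 libraries.

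**Figure D5:**
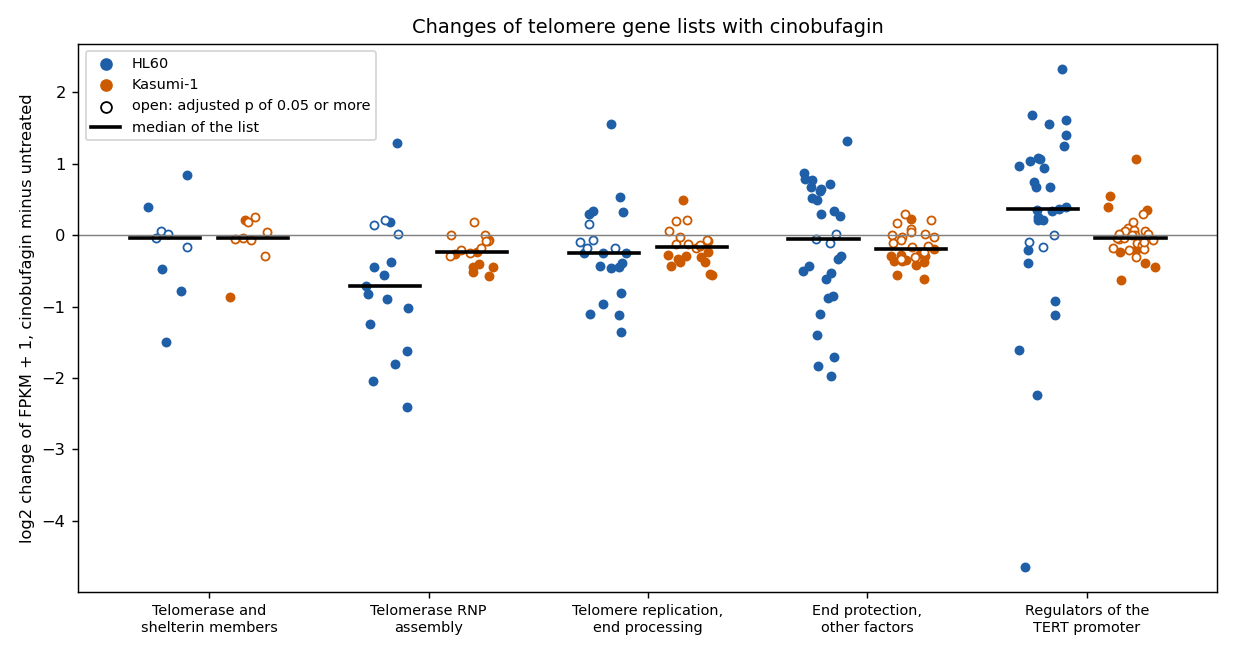
Log2 change of FPKM + 1 with cinobufagin for every tested gene of the 9 telomerase and shelterin genes and of 4 related lists, in HL60 (blue) and Kasumi-1 (orange); filled points have an adjusted p under 0.05 and bars are medians. The assembly list has a median of −0.71 in HL60, the lowest of the 5, and MYC is the lowest point, at −4.64.

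For each gene, the 3 genes with the most similar profile over the 8 libraries were taken from 7935 or 7936 genes with a mean FPKM of at least 5, by Pearson's r of log2(FPKM + 1). The 8 libraries fall into 4 groups, so these values mostly compare 4 group means and are given as a description. TERT was most like PSMD3, MPP6 and SAAL1 (r of 0.996, 0.995 and 0.995). TERF2IP was most like HMGB2, MAP3K8 and ATP6V0B (0.998, 0.998 and 0.997), and TERF2 was most like ATP6AP2, CHD6 and GMEB1 (0.983, 0.977 and 0.964). POT1 was most like ABCA2, TSPAN32 and ERI2 (0.997, 0.997 and 0.996), and ACD was most like HAUS5, MRPL35 and PSMG4 (0.990, 0.986 and 0.984). TEP1 was most like TBC1D1, P4HA1 and PPP3CB (0.987, 0.984 and 0.983). The nearest profiles of TERF1, WRAP53 and TINF2 were less alike: LRRC40, EIF4E and NUP155 for TERF1 (0.947, 0.946 and 0.941), YTHDF2, MED18 and CHERP for WRAP53 (0.940, 0.938 and 0.921), and ATP5J, NEDD8 and C19orf53 for TINF2 (0.891, 0.855 and 0.844).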

How the data were processed

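RNA was extracted with an RNeasy kit and libraries were prepared with a stranded TruSeq poly(A) kit, per the labels' protocols. Per the submitters' processing notes, bcl2fastq 2.20.0, HISAT2 2.1.0 and Cufflinks 2.2.1 were used with build hg19; no source used here gives the annotation, strand setting or filters, so reads of genes that overlap on opposite strands may not be told apart. The authors deposited FPKM for 25593 gene rows, and all 8 columns were used. Without counts, no counting interval was set and an FPKM of 0 was not read as absence.

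From these, log2(FPKM + 1) was fitted with limma 3.58.1 (R 4.3.3), 1 mean per group over all 8 libraries, 4 residual degrees of freedom and a trend of the variance on intensity. A gene was tested where 2 or more libraries reached an FPKM of 1 (12511 genes), with Benjamini-Hochberg adjustment over all of them and a threshold of 0.05. All log2 changes are on this scale and understate changes of low genes. A 2 against 2 permutation cannot go below a two-sided p of 0.33 and was not used. Relative depth came from genes under 0.3 FPKM. The fit was tested on simulated data with independent noise in each library. Those data lack the shared deviations of same-numbered libraries given below, so they do not test calls under them.

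Some listed genes are not reported here. The members and lists were chosen with earlier results of these data known. By rule, text names all 9 members, MYC, TERC, DKC1, KARS and PARD6A, up to 3 called genes per list, direction and line with the largest change, and the 3 most similar profiles of each member. NOP10, SMN1 and other genes of the lists follow that rule, except SP1, which is named because its binding sequence is marked. Alternatives were another pseudocount, 2 other filters, 3 rescalings, a replicate block, each line alone, no trend and leaving out each library.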

Additional observations from a re-analysis of the deposited data

Results flagged for a closer look

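For 4 of the 9 genes the cinobufagin change differed between the lines by a test of the difference itself (limma, Benjamini-Hochberg over all genes), a test that 63.1% of all genes passed. The difference of the log2 changes, Kasumi-1 minus HL60, was 0.63 for TERT, which fell in both lines and more in HL60, and −0.62 for TERF2IP, which rose in both lines and more in HL60. It was 0.43 for POT1 and 0.70 for ACD, which fell in HL60 and did not pass in Kasumi-1.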

How the results depend on the processing

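The 16 called member results gave 258 values under the alternatives: 245 were called in the same direction, 13 were no longer called and 0 reversed. The 13 were 9 for TERF2IP in Kasumi-1, 3 for TEP1 and 1 for the POT1 difference between lines. Of 328 values of the 20 results that were not called, 298 stayed so in the same direction, 8 became called and 22 changed sign. The filter at an FPKM of 5 leaves out TERT and TEP1. The number of genes called in Kasumi-1, 3292, was 1040 with that line fitted alone and between 1654 and 2738 with 1 library left out; the cause was not tested. Both fits use fewer samples. Where 1 library was left out, the lone library of its group was assumed to vary like the others.

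Sign changes were these, and the cause was not tested. In HL60, TINF2 was 0.031 after rescaling by median ratios and 0.14 without short RNAs, and TERF1 was 0.0071 without short RNAs. In Kasumi-1, POT1 was 0.015 with median ratios and 0.011 with quantiles. Without short RNAs, the difference between lines of TINF2 was −0.12 and the untreated difference of TERF2 was 0.012. With 1 library left out, HL60 changes ranged from −0.091 to 0.013 for TINF2, −0.026 to 0.15 for WRAP53 and −0.037 to 0.069 for TEP1. Kasumi-1 changes ranged from −0.075 to 0.17 for TINF2 and −0.20 to 0.083 for WRAP53. Differences between lines ranged from −0.26 to 0.00022 for TERF1, −0.036 to 0.21 for TINF2 and −0.26 to 0.024 for WRAP53. Untreated differences ranged from −0.049 to 0.044 for TERF2 and −0.17 to 0.074 for TINF2.

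Same-numbered libraries deviated together (r of 0.272 to 0.434 across genes for the 6 pairs of groups), but each comparison has only 2 numbers and the labels name no shared batch, so they were not taken as pairs. With the replicate block, 9787 genes were called in HL60, 4749 in Kasumi-1, 8751 for the difference between lines and 9548 between untreated lines. The block added TERF1 (limma adjusted p = 0.0347) and TERF2 (0.0268) in Kasumi-1 and changed no other member call.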
